A study of Homo sapiens with 24 samples.

Results

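The data described here are the transcriptomes of Molm-14 cells after 24 h and after 2 h in the RAS inhibitor RMC-7977. They comprised 8 of the 23 libraries in the deposited table, 4 at each time, picked by their labelled line, agent and time, and were compared over all 13033 genes of that table. Molm-14 is a human acute myeloid leukaemia line that the labels list as FLT3-ITD, an internal tandem duplication that activates the receptor FLT3. Both groups received 25 nM RMC-7977. Molm-14 in DMSO, the solvent (4 libraries), served as a reference level. OCIAML-3, a leukaemia line listed as NRAS Q61L, also received 25 nM RMC-7977. Its libraries at 2 h (4 libraries) and 24 h (3 libraries) served to test whether a change differed between lines. The labels give no time for the DMSO group, so exposure to the drug and time in culture cannot be told apart in the change from 2 h to 24 h. Each line is a single cell line, and the labels do not state whether replicate libraries are from independent cultures; the spread behind the p-values may thus be technical.

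RAS proteins relay signals from receptors such as FLT3 through RAF and MEK kinases to ERK. ERK switches on transcription factors and also its own brakes, among them the DUSP phosphatases and the Sprouty and SPRED proteins, so the mRNAs of these genes are used as a readout of ERK activity. RMC-7977 grips RAS in its active state, with GTP bound, together with the chaperone cyclophilin A, and keeps RAS from engaging its effectors. In myeloid leukaemia cells this pathway is known to support proliferation and to hold back maturation.

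The 8 libraries held 15.8 to 21.9 M reads each by their effective size. The first principal component of the 8 libraries held 80.0% of the variance and set the times apart, against 3.88% for the second. The first library at 2 h stood apart from the rest of its group: its pairs differed by a mean chi-square per gene of 6.74 to 9.78, against 2.58 to 3.03 for the other 2 h pairs and 1.86 to 3.85 for pairs at 24 h. All 9 myeloid marker genes of a list for checking cell identity were in the table, among them SPI1 (183 to 272 CPM over the 8 libraries), CEBPA (533 to 651 CPM) and LYZ (92.3 to 110 CPM). Not all were high or steady: MPO was at 0.365 to 3.67 CPM, ITGAM at 6.02 to 35.8 CPM and CSF1R at 11.4 to 89.7 CPM. None of 4 T cell, 4 erythroid, 3 platelet, 4 epithelial and 5 stromal or endothelial markers was in it, and of 4 B cell markers only PAX5 was (8.28 to 13.4 CPM).

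At an adjusted p below 0.05 and a change of at least 2-fold (1 on the log2 scale), 945 genes, or 7.25% of all tested, were higher at 24 h and 440, or 3.38%, were lower; genes of this kind are said below to have risen or fallen. In either direction the call held for 10.6% of genes. The median log2 change over all genes was 0. Rises were also the larger changes, with 178 genes up by at least 4-fold on the fitted scale against 38 down. All 4 libraries of 24 h lay above all 4 of 2 h for 30.6% of genes and below them for 32.5%, so a lack of overlap alone was common. Without the first 2 h library the counts were 951 higher and 451 lower. These are bulk measurements, in which fewer cells of a kind and less RNA per cell cannot be told apart. CPM values are read counts scaled to library size with a small prior count left in, so that a gene without reads stands at 0.105 CPM, and fold changes understate the change of genes with few reads.

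**Figure D1:**
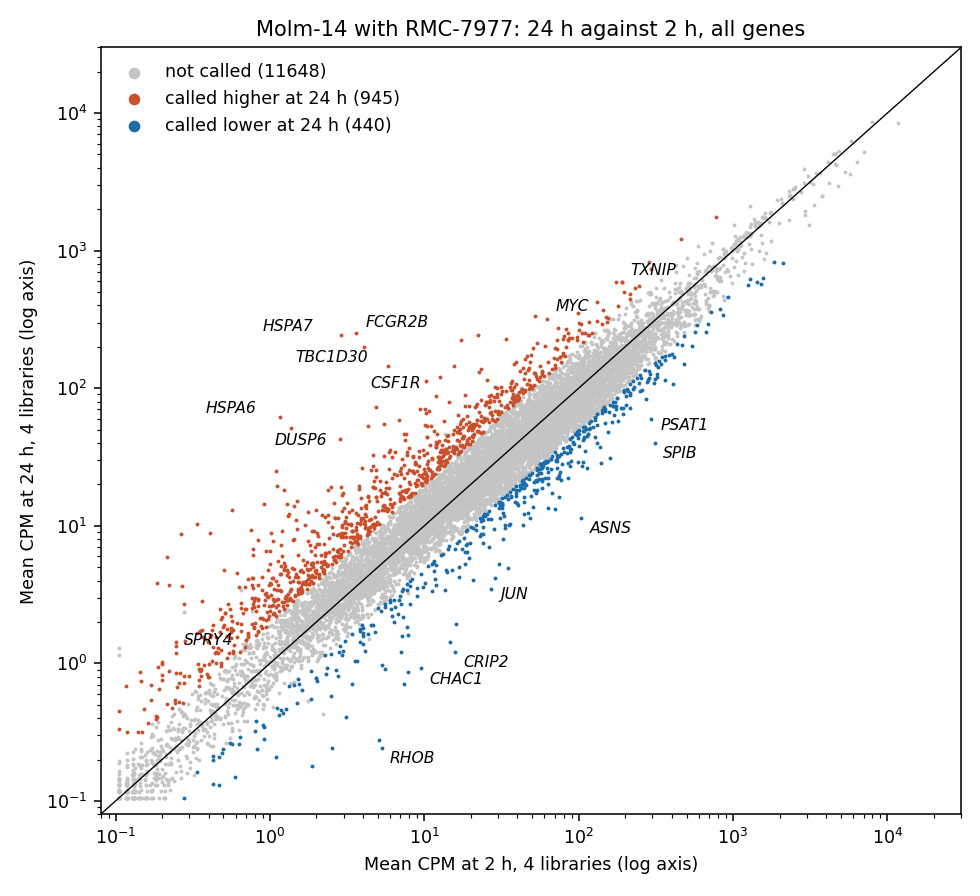
Mean CPM of every gene at 24 h (vertical) against 2 h (horizontal) in Molm-14 with RMC-7977, both axes logarithmic, 4 libraries a time, with the line of equal values. Genes called higher (945) and lower (440) at 24 h are coloured, and HSPA7, FCGR2B and HSPA6 have the largest ratios of 24 h to 2 h.

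The ERK output genes were mostly higher at 24 h than at 2 h, but not to one common level. Of 25 listed genes 20 were measured, 12 of which rose and 1 fell, with a median log2 change of 1.15. On the log2(CPM + 1) scale, which damps genes of few reads, 7 rose and 1 fell. DUSP6 (chr12:89347235-89352501, minus strand), the phosphatase that removes the activating phosphates from ERK, was at 3.32, 2.64, 3.15 and 2.31 CPM in the 2 h libraries and 40.3, 42.5, 45.1 and 42.2 CPM at 24 h. The libraries of the 2 times did not overlap, and at 24 h they lay at the level of DMSO, which averaged 44.0 CPM. The change was log2 fold change 3.91 ± 0.20 SE, adjusted p = 8.85e-17. MYC, the transcription factor that drives growth and ribosome production, stood at 66.6, 59.4, 61.8 and 62.8 CPM in the 2 h libraries and 326, 316, 323 and 310.3 CPM at 24 h. All 24 h libraries were above all 2 h libraries and below the DMSO mean of 601 CPM, for a change of log2 fold change 2.35 ± 0.042 SE, adjusted p = 6.46e-28.

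Other feedback genes rose by less or stopped further below DMSO. SPRY4, a Sprouty inhibitor of the pathway, was at 0.287, 0.214, 0.267 and 0.220 CPM in the 2 h libraries and 1.72, 1.12, 1.15 and 0.801 CPM at 24 h. The groups did not overlap, yet every treated library was under the DMSO mean of 9.95 CPM (log2 fold change 2.24 ± 0.19 SE, adjusted p = 1.07e-11). SPRY2 was at 6.72, 5.36, 6.33 and 6.30 CPM in the 2 h libraries and 19.9, 21.3, 24.7 and 22.4 CPM at 24 h, again without overlap (log2 fold change 1.84 ± 0.072 SE, adjusted p = 9.11e-20), and its DMSO mean was 36.1 CPM. CCND1, the cyclin that couples ERK to entry into the cell cycle, was at 3.14, 3.12, 3.44 and 2.71 CPM in the 2 h libraries and 10.2, 8.43, 10.1 and 9.69 CPM at 24 h. It rose without overlap and stayed below its DMSO mean of 33.2 CPM (log2 fold change 1.63 ± 0.13 SE, adjusted p = 2.70e-12). DUSP4 (log2 change 2.44), ETV1 (2.05), FOSL1 (1.78), SPRED1 (1.61) and SPRED2 (1.24) rose as well. DUSP4 and SPRY4 were under 2 CPM in every treated library, where few reads stand behind each value. On the log2(CPM + 1) scale SPRY4 (0.80), ETV1 (0.95) and DUSP4 (0.70) were not called.

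A few genes of the same list went the other way or stayed low. ETV4, an ETS family transcription factor, was at 15.5, 14.5, 13.3 and 12.9 CPM in the 2 h libraries and 3.34, 5.18, 5.14 and 4.91 CPM at 24 h. It fell by 1.62 on the log2 scale (SE 0.23, adjusted p = 2.53e-06) from a DMSO mean of 30.5 CPM, so that its level was lower at each step. EGR1, an immediate early zinc finger factor, was at 1.47, 1.20, 0.969 and 1.66 CPM in the 2 h libraries and 1.30, 1.44, 0.722 and 0.801 CPM at 24 h. These groups overlapped, the log2 change of -0.35 was not called (adjusted p = 0.12), and DMSO averaged 53.7 CPM. Thus ETV4 and EGR1 were far below DMSO at 24 h, where DUSP6 was not.

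**Figure D2:**
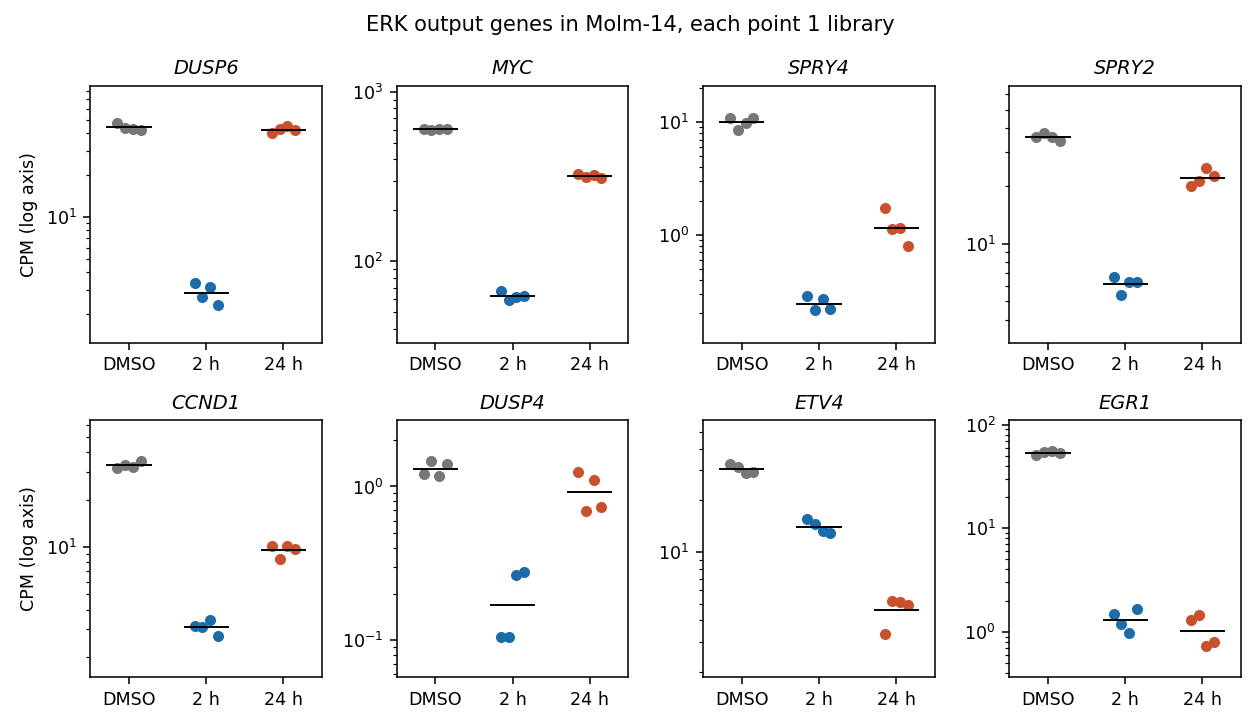
CPM of 8 ERK output genes (logarithmic axes) in each Molm-14 library of DMSO, 2 h and 24 h, 4 libraries a group, with a bar at the geometric mean. DUSP6 at 24 h stands at its DMSO level, MYC and SPRY2 between 2 h and DMSO, and EGR1 with 2 h.

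In a separate list of immediate early genes, 5 of 25 measured members rose and 3 fell, a share of 32.0% called against 10.6% of all genes. The list's median log2 change was -0.05. JUN, a subunit of the AP-1 factor, was at 29.3, 25.0, 28.6 and 25.0 CPM in the 2 h libraries and 3.12, 4.01, 2.96 and 3.84 CPM at 24 h. It fell without overlap (log2 fold change -2.96 ± 0.11 SE, adjusted p = 2.81e-20) to below its DMSO mean of 4.96 CPM. KLF2 (-1.91) and NR4A1 (-1.88), transcription factors induced by stress and signalling, fell too. FOSL2 (1.96), ZFP36L1 (1.83), which speeds the decay of AU-rich mRNAs, and MAFF (1.78) rose. The difference for FOS was -0.01 (adjusted p = 0.956), which did not pass.

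Among genes that encode RAS proteins, HRAS (-0.60) and NRAS (-0.33) were a little lower at 24 h without reaching the 2-fold limit. Of 32 measured components of the pathway 2 rose and 2 fell, a share of 12.5% called against 10.6% of all genes. Under scaling to library totals 3 rose and 1 fell. RASGRP4 (log2 change 2.01), an exchange factor that loads RAS with GTP, and KSR1 (1.12), a scaffold for RAF and MEK, rose. RASGRP2 (-1.19), another exchange factor, fell.

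Of 24 measured receptors that can signal to RAS or to other cytokine pathways 8 rose and 3 fell, and on the log2(CPM + 1) scale 7 rose and 1 fell. CSF1R (chr5:150053295-150113365, minus strand), the receptor for macrophage colony-stimulating factor, was at 12.9, 11.4, 11.6 and 11.8 CPM in the 2 h libraries and 89.7, 87.1, 89.2 and 86.5 CPM at 24 h. The groups lay far apart, and the DMSO mean was 7.08 CPM (log2 fold change 2.89 ± 0.057 SE, adjusted p = 6.11e-27). TNFRSF1B, a receptor for tumour necrosis factor, was at 14.4, 13.1, 11.6 and 11.5 CPM in the 2 h libraries and 123, 120.4, 121 and 119.5 CPM at 24 h, also without overlap (log2 fold change 3.26 ± 0.058 SE, adjusted p = 5.12e-28). IL10RA (1.84), CSF2RB (1.54) and CSF3R (1.42), receptors for interleukin 10, the GM-CSF family and G-CSF, rose. FGFR3, a growth factor receptor tyrosine kinase, fell by 2.29 on the log2 scale. FLT3 itself changed by 0.38, which is under the limit.

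Most of the ribosome assembly genes that MYC is known to control did not rise with it. Of 11 measured genes of the MYC network 5 rose, among them MXI1 (1.61) and MXD1 (1.09), which are repressors that compete with MYC for its dimer partner. Of 36 measured nucleolar assembly factors none rose and 1 fell, and the list's median log2 change was -0.34. NCL, the nucleolar protein nucleolin, was at 1254, 1315, 1329.9 and 1383 CPM in the 2 h libraries and 771, 778, 766 and 863 CPM at 24 h. Its libraries did not overlap, but the log2 change of -0.73 was under the limit. NPM1 changed by -0.57 and NOP58 by -0.80 in the same way. None of 47 measured cytosolic ribosomal protein genes was called, with a median of 0.12 and a range of -0.15 to 0.32.

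Genes of DNA replication were lower at 24 h throughout. All 50 measured S phase genes had a negative change, 33 fell, and the median was -1.10. MCM6, a subunit of the replicative helicase, was at 262, 257, 251 and 259 CPM in the 2 h libraries and 93.4, 94.2, 100.2 and 100.1 CPM at 24 h. The times did not overlap, and the 2 h libraries were near the DMSO mean of 275 CPM (log2 fold change -1.41 ± 0.036 SE, adjusted p = 4.63e-24). CLSPN, a replication checkpoint adaptor, was at 133, 142, 131 and 142 CPM in the 2 h libraries and 35.9, 35.9, 36.7 and 40.6 CPM at 24 h; the change was log2 fold change -1.88 ± 0.059 SE, adjusted p = 5.62e-22. RRM2, the small subunit of ribonucleotide reductase, was at 184, 184, 209 and 194 CPM in the 2 h libraries and 71.2, 71.1, 74.9 and 70.0 CPM at 24 h, without overlap (log2 fold change -1.42 ± 0.043 SE, adjusted p = 1.96e-22). UHRF1 (-1.69), EXO1 (-1.70), MCM10 (-1.51) and PCNA (-1.29) fell as well. Members that stayed under the limit included CDT1 (-0.69) and RPA2 (-0.49).

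Upstream of these genes, 9 of 24 measured G1 genes fell and 1, CCND1, rose. E2F1, an activator of S phase genes, was at 111, 103, 106 and 104 CPM in the 2 h libraries and 29.4, 31.2, 28.9 and 26.5 CPM at 24 h. It fell by 1.87 on the log2 scale, and its 2 h libraries were above the DMSO mean of 64.0 CPM. E2F2 (-2.41), E2F7 (-1.53), CCNE2 (-2.02) and RBL1 (-1.36) fell too. The CDK inhibitors CDKN1B (0.02) and CDKN1C (-0.30) were not called.

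Mitotic genes were also lower, though fewer passed the 2-fold limit. All 46 measured mitosis and G2 genes had a negative change and 13 fell, with a median of -0.89. PLK4 (-1.29), which starts centriole duplication, SPC25 (-1.40), a kinetochore subunit, and KIF11 (-1.21), a spindle motor, fell. MKI67, the proliferation marker, was at 760.3, 755, 738 and 765 CPM in the 2 h libraries and 477, 479, 498 and 539 CPM at 24 h. These groups did not overlap, but the log2 change was only -0.60. Of 22 measured homologous recombination and Fanconi repair genes 9 fell, with a median of -0.92, among them BRCA1 (-1.36). Under scaling to library totals, which adds 0.08 to the median of all genes, 27 S phase and 8 mitotic genes fell.

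Replication promoters carry E2F elements, so promoters (RefSeq, GRCh38.p14, 250 bases before to 50 after the start site) were searched on both strands for TTTNGCGC, an E2F element with 1 free base. It was found in 8.96% of 346 promoters of fallen genes, 1.15% of 698 promoters of risen genes and 3.08% of all 10440 promoters of measured genes. Of 41 S phase promoters 14 held it. The 250 bases before the start of 2 of them are shown, 5′ to 3′ on the strand of the gene, with the matches in capitals. MCM6 (chr2:135876444-135876693, minus strand) holds 4 matches in 2 separate stretches, each an overlapping pair on opposite strands, and POLE2 (chr14:49688215-49688464, minus strand), a subunit of DNA polymerase epsilon whose log2 change was -1.28, holds 1.
MCM6: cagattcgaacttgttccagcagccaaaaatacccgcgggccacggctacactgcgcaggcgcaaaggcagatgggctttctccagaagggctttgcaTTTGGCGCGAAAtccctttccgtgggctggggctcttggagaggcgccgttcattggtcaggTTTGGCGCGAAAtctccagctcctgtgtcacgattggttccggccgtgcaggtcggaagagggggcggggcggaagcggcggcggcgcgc
POLE2: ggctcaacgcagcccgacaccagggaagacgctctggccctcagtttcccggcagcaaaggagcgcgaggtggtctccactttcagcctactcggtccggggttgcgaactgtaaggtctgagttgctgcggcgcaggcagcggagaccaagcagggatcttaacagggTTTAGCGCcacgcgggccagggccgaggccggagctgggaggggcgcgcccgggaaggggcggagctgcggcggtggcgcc
A match describes letters and was not tested as a binding site.

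Of the lists examined, the amino acid response had the lowest median. ATF4 is the transcription factor that cells use when amino acids run short or proteins misfold, and its targets import and make amino acids. Of 37 measured genes 23 fell and none rose, with a median of -1.20. CHAC1 (chr15:40953471-40956512, plus strand), which degrades glutathione, was at 10.4, 9.75, 10.0 and 7.98 CPM in the 2 h libraries and 0.834, 0.532, 1.58 and 0.737 CPM at 24 h. The 24 h libraries were all below the 2 h libraries and the DMSO mean of 13.5 CPM (log2 fold change -3.48 ± 0.23 SE, adjusted p = 3.22e-14). ASNS (chr7:97851677-97928441, minus strand), asparagine synthetase, was at 95.9, 103, 104 and 109 CPM in the 2 h libraries and 9.28, 12.1, 13.2 and 11.1 CPM at 24 h, which left no overlap either (log2 fold change -3.18 ± 0.069 SE, adjusted p = 8.48e-26), and DMSO averaged 129 CPM. PSAT1, of the serine synthesis pathway, was at 287, 298, 299 and 294 CPM in the 2 h libraries and 61.3, 60.6, 58.8 and 59.3 CPM at 24 h, with a change of log2 fold change -2.30 ± 0.041 SE, adjusted p = 5.12e-28.

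Transporters and stress regulators of the same list moved with the enzymes. SLC6A9 (log2 change -3.42), a glycine transporter, SLC7A11 (-2.11), the cystine importer, and INHBE (-3.38), a secreted inhibin subunit, fell. So did CBS (-2.22), GPT2 (-2.10), TRIB3 (-1.65) and DDIT3 (-1.46). The ATF4 mRNA was at 471, 483, 499.7 and 497 CPM in the 2 h libraries and 367, 370.3, 371 and 354 CPM at 24 h. Its libraries did not overlap, but its log2 change of -0.42 was under the limit. Of 20 measured cytosolic aminoacyl-tRNA synthetases, which load tRNAs with amino acids, 6 fell and none rose, with a median of -0.80, among them GARS1 (-1.50), WARS1 (-1.43) and AARS1 (-1.18). Under scaling to library totals 21 amino acid response genes and 4 synthetases fell.

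The element TGATGNAA, bound by pairs of C/EBP and ATF proteins, was found in 6.07% of promoters of fallen genes, 2.44% of those of risen genes and 1.72% of all. It was in 4 of 29 promoters of the amino acid list and in 6 of 16 of the synthetases. Those of ASNS (chr7:97872409-97872658, minus strand), CHAC1 (chr15:40953221-40953470, plus strand) and AARS1 (chr16:70289507-70289756, minus strand) are shown because these genes were among the fallen, with the element in capitals on either strand.
ASNS: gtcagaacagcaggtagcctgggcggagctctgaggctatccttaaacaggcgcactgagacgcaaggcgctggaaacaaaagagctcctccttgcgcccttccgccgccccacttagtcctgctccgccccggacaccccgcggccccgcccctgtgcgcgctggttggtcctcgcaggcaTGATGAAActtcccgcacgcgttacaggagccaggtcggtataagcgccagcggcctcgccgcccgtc
CHAC1: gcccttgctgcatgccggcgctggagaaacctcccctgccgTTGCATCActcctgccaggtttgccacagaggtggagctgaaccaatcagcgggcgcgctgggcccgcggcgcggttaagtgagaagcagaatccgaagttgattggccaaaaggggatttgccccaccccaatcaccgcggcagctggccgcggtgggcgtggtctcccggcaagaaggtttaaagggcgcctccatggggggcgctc
AARS1: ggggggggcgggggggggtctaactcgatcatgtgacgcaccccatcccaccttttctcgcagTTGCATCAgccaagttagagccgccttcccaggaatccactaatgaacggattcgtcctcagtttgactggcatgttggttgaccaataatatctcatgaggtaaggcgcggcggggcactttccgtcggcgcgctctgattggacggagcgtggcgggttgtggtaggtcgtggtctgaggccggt
The ASNS start used here is one that RefSeq places inside the gene's interval given above, which spans all its transcripts. The match begins 68 bases before the start in ASNS, 209 in CHAC1 and 187 in AARS1.

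Chaperones, the unfolded protein response and the proteasome were lower by smaller steps. Of 28 measured chaperones 4 fell and 1 rose, a share of 17.9% called against 10.6% of all genes. Their median was -0.77, and HSPB1 (-1.34), HSP90AA1 (-1.28) and HSPA9 (-1.14) were among the fallen. Of 22 measured endoplasmic reticulum stress genes 4 fell (18.2%), including HSPA5 (-1.17), the main chaperone of that compartment, and MANF (-1.26). All 30 measured proteasome subunits had a negative change with a median of -0.67, and 1, PSMD1 (-1.10), fell. That share, 3.33%, was below that of all genes. Nuclear-encoded respiratory chain subunits had a median of -0.47 with 1 of 41 fallen, or 2.44%, also below that of all genes. The fallen count was 2 without 2 h replicate 1 and none without 2 h replicate 4 or 24 h replicate 1. The 13 transcripts of the mitochondrial genome had a median of -0.60 with none called.

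The single chaperone that rose was HSPA6, at 1.18, 1.15, 0.937 and 1.37 CPM in the 2 h libraries and 66.2, 66.7, 61.8 and 52.4 CPM at 24 h. Its libraries did not overlap (log2 fold change 5.74 ± 0.11 SE, adjusted p = 1.87e-27). HSPA6 lies on chromosome 1 between the Fc gamma receptor genes, which bind antibodies on myeloid cells, and this neighbourhood was examined after the values were seen. All 7 measured genes from FCGR2A to FCRLB, over 223 kb of GRCh38.p14 (chr1:161505457-161728143), rose. FCGR2B, the inhibitory receptor of the family, was at 3.74, 2.91, 3.97 and 3.81 CPM in the 2 h libraries and 259, 252, 256 and 244 CPM at 24 h. Against a DMSO mean of 5.05 CPM, only the 24 h libraries were high (log2 fold change 6.14 ± 0.072 SE, adjusted p = 2.51e-32). FCGR2A, its activating relative, was at 16.0, 17.6, 18.5 and 17.3 CPM in the 2 h libraries and 226, 219, 222 and 222 CPM at 24 h, with no overlap (log2 fold change 3.68 ± 0.057 SE, adjusted p = 2.01e-29).

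Some of these neighbours are near-identical copies. HSPA7 (6.43) and FCGR2C (5.60) are annotated as transcribed pseudogenes. They closely resemble HSPA6 and the other FCGR2 genes, so how the authors' counting divided the reads among these copies is uncertain. FCRLA (3.12) and FCRLB (2.31), Fc receptor-like genes, went from 0.782 and 1.13 CPM on average at 2 h to 6.75 and 5.58 CPM at 24 h. The measured genes next to the stretch on either side, SDHC (-0.14) and DUSP12 (-0.20), were not called.

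**Figure D3:**
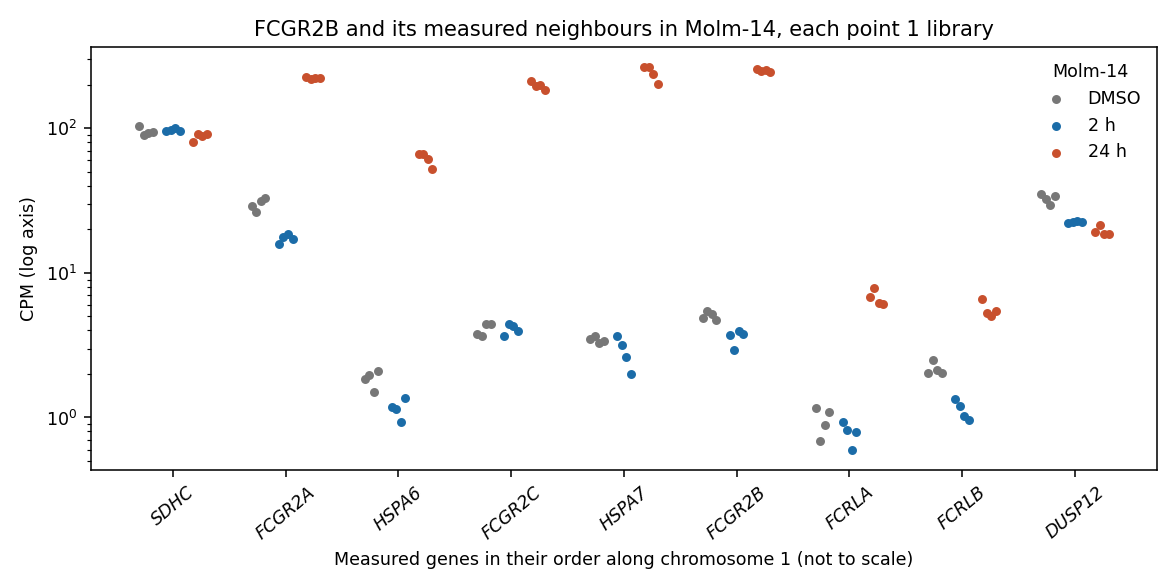
CPM (logarithmic axis) of FCGR2B and its measured neighbours in their order along chromosome 1, with spacing not to scale, in each Molm-14 library of DMSO, 2 h and 24 h. The 7 genes from FCGR2A to FCRLB are higher at 24 h than in both other groups, and SDHC and DUSP12 lie beside them without a call.

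Of 35 measured monocyte and macrophage genes 13 rose and 1 fell, with a median of 0.79 against 0 for all genes. CD86, a costimulatory protein of antigen-presenting cells, was at 0.971, 1.20, 0.649 and 0.852 CPM in the 2 h libraries and 15.0, 13.4, 16.0 and 12.9 CPM at 24 h, and every 24 h library lay above the DMSO mean of 1.23 CPM (log2 fold change 3.99 ± 0.16 SE, adjusted p = 3.32e-19). ITGAX, the integrin CD11c, was at 7.29, 7.34, 8.76 and 7.24 CPM in the 2 h libraries and 48.5, 49.7, 46.0 and 40.1 CPM at 24 h, with all 24 h libraries above the rest (log2 fold change 2.59 ± 0.089 SE, adjusted p = 4.21e-21). ITGAM (2.41), the integrin CD11b, and TYROBP (2.17), an adaptor of activating receptors, rose. Well-known monocyte genes without a call were CD14 (0.14) and LYZ (0.11). TREM1 (-3.03), a receptor that amplifies inflammation, fell, and so did MPO (-2.36), the peroxidase of granulocytic precursors, both from under 4 CPM.

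Markers of other lineages were few in the table. None of 5 measured lymphoid genes and none of 3 measured epithelial and stromal genes was called. Of 4 erythroid and platelet genes ITGA2B rose (1.50), and on the log2(CPM + 1) scale its change was 0.65 and not called. The summed level of the lymphoid list was 37.7 to 41.8 CPM at 2 h and 45.9 to 52.3 CPM at 24 h. That of the erythroid and platelet list was 443 to 462 CPM at 2 h and 315 to 337 CPM at 24 h, and that of the epithelial and stromal list 172 to 174 CPM at 2 h and 136 to 145 CPM at 24 h. None of these 3 sums overlapped between the times, the lymphoid one higher and the other two lower at 24 h, and their part in other results was not tested. Without 2 h replicate 2 or 4, 1 epithelial and stromal gene fell. Of 28 measured progenitor and HOX factors 5 rose, among them CEBPD (2.09), a C/EBP transcription factor, and none fell. The share called was 17.9%, against 10.6% of all genes.

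Some interferon and MHC class II genes were higher. Of 39 measured type I interferon response genes 8 rose and none fell, a share of 20.5% called against 10.6% of all genes. The median was 0.45, and on the log2(CPM + 1) scale 4 rose, with IFIT3 (0.96) no longer called. IFI16, a sensor of DNA, was at 7.21, 7.41, 8.70 and 8.62 CPM in the 2 h libraries and 36.4, 35.2, 38.3 and 37.8 CPM at 24 h. Its groups did not overlap (log2 fold change 2.21 ± 0.059 SE, adjusted p = 1.12e-23). GBP2 (1.59), a guanylate-binding protein, OAS2 (1.46), which makes the activator of RNase L, and IFIT3 (1.29) rose, while ISG15 (0.13) and MX1 (0.24) were not called. Of 8 measured MHC class II genes 3 rose. HLA-DRA was at 0.561, 0.598, 0.537 and 0.450 CPM in the 2 h libraries and 2.60, 2.35, 2.72 and 3.14 CPM at 24 h, without overlap but at few reads (log2 fold change 2.33 ± 0.24 SE, adjusted p = 6.20e-10). CIITA (0.63), the activator of this locus, and CD74 (0.27) were under the limit. Of 17 measured class I genes HLA-E rose (1.17) and CALR fell (-1.15), a share of 11.8% called against 10.6% of all genes.

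Interferon-stimulated promoters carry a response element with repeated GAAA. This element, searched as 2 GAAA runs 2 bases apart, was found in 4.73% of promoters of risen genes, 2.31% of those of fallen genes and 2.98% of all, and in 16 of 30 promoters of the interferon list. Those of IFIT3 (chr10:89327747-89327996, plus strand), with 2 matches, and ISG20 (chr15:88638766-88639015, plus strand), an exonuclease gene with a log2 change of 1.37 and 1 match, are shown as examples among the risen genes, with the matches in capitals.
IFIT3: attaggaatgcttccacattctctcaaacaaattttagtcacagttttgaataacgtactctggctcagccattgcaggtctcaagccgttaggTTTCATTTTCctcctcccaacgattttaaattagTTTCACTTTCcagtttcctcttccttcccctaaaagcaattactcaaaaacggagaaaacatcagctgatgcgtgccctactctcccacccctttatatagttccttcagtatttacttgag
ISG20: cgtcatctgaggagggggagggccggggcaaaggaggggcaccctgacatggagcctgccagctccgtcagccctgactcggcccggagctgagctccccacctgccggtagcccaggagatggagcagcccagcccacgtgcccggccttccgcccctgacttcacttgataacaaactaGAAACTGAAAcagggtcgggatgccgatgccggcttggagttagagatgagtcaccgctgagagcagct
Where the capitals read TTTC, the element is on the opposite strand.

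FOXO factors are active when growth factor signalling is low. In a list of their targets, other quiescence genes and the FOXO genes themselves, 10 of 27 measured members rose and 1 fell, with a median of 0.80. TXNIP, an arrestin-like protein that limits glucose uptake, was at 201, 188, 182 and 194 CPM in the 2 h libraries and 571, 578, 613 and 589 CPM at 24 h. Its times did not overlap, and 2 h was already above the DMSO mean of 106 CPM (log2 fold change 1.62 ± 0.035 SE, adjusted p = 5.86e-26). BCL6 (2.05), a transcriptional repressor, CREBRF (1.61), YPEL5 (1.60) and PIK3IP1 (1.37), an inhibitor of PI3 kinase, rose. The fallen member was SESN3 (-1.07), which encodes a sestrin; its call was lost on the log2(CPM + 1) scale (-0.24), under scaling to library totals (-0.99) and without 24 h replicate 2 (-0.94) or 3 (-0.93).

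Among 16 measured BCL2 family genes 2 rose and 1 fell, a share of 18.8% called against 10.6% of all genes. BMF, a pro-death BH3-only gene, was at 83.8, 81.7, 78.1 and 82.6 CPM in the 2 h libraries and 167, 172, 176 and 164 CPM at 24 h, higher at each step from a DMSO mean of 14.7 CPM (log2 fold change 1.06 ± 0.064 SE, adjusted p = 3.57e-15). BBC3, which encodes the BH3-only protein PUMA, was at 94.9, 80.5, 81.7 and 77.5 CPM in the 2 h libraries and 37.3, 39.0, 39.0 and 35.3 CPM at 24 h. It fell without overlap (log2 fold change -1.15 ± 0.081 SE, adjusted p = 1.52e-13) and stayed above its DMSO mean of 16.9 CPM. BCL2A1, a pro-survival member, rose (2.10) at under 2 CPM and was not called on the log2(CPM + 1) scale (0.89). BCL2 (-0.03), MCL1 (0.28), BCL2L1 (-0.16), BCL2L11 (0.43) and PMAIP1 (-0.62) were not called. Of 26 measured p53 targets 2 rose and 5 fell, a share of 26.9% called. From the fallen, 2 genes, GDF15 (-2.10) and SESN2 (-1.65), are also known to respond to ATF4. The risen count was 1 without 2 h replicate 2 and on the log2(CPM + 1) scale, and 3 without 24 h replicate 2.

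Of 23 measured NF-kB and cytokine genes 5 rose and 2 fell, a share of 30.4% called against 10.6% of all genes. The list's median log2 change was -0.03, and on the log2(CPM + 1) scale 3 rose and 2 fell. TNFAIP3 (2.44), which restrains NF-kB, NFKBIZ (1.76) and IL1RN (1.91), the interleukin 1 receptor antagonist, rose. RELB (-1.11) and TNFAIP2 (-1.11) fell, and the change of TNF was -0.03, which was not called.

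Sterol synthesis genes were higher at 24 h, 20 of 24 measured with a positive change, 4 of which rose (median 0.63). The share called was 16.7%, against 10.6% of all genes. MSMO1, a sterol oxidase, had a mean of 17.0 ± 0.723 CPM at 2 h and 54.6 ± 2.27 CPM at 24 h (SD, n = 4 each), and no library of 2 h reached 24 h (log2 fold change 1.68 ± 0.066 SE, adjusted p = 9.53e-20). INSIG1 (1.17), which holds back sterol synthesis, rose as well. Without the first 2 h library 4 of the 24 genes rose. The count was 3 on the log2(CPM + 1) scale and without 2 h replicate 4 or 24 h replicate 4, and 5 under scaling to library totals.

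Glucose use split by gene. Of 24 measured glycolysis genes 6 rose and none fell, a share of 25.0% called against 10.6% of all genes. Their median was near the background at 0.05. SLC2A3, a glucose transporter, was at 49.6, 53.4, 50.4 and 55.4 CPM in the 2 h libraries and 326, 336, 339.8 and 335 CPM at 24 h. Its 24 h libraries were far above the 2 h libraries and the DMSO mean of 106 CPM (log2 fold change 2.68 ± 0.042 SE, adjusted p = 2.42e-29). HK2 (2.27), the hexokinase that traps glucose, SLC2A1 (1.77), a second glucose transporter, and PFKFB4 (1.92) rose, while GAPDH (-0.11) and PGK1 (-0.17) were not called. Of 38 measured lysosome and autophagy genes 4 rose, a share of 10.5% called against 10.6% of all genes. TPP1 (1.44) and PSAP (1.22) were among the risen.

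Some of the largest single changes belonged to no pathway list. LSP1, an actin-binding protein of leukocytes, was at 1.51, 1.58, 0.969 and 1.37 CPM in the 2 h libraries and 52.1, 50.2, 51.8 and 50.8 CPM at 24 h, and all 24 h libraries were above all others (log2 fold change 5.26 ± 0.12 SE, adjusted p = 3.83e-24). TBC1D30, a protein with a Rab GTPase-activating domain, was at 5.93, 5.70, 6.16 and 5.62 CPM in the 2 h libraries and 146, 141, 145 and 145 CPM at 24 h, without overlap (log2 fold change 4.62 ± 0.082 SE, adjusted p = 5.12e-28). IL16, a chemoattractant cytokine, was at 1.41, 0.896, 1.08 and 0.967 CPM in the 2 h libraries and 25.0, 23.5, 26.3 and 24.5 CPM at 24 h, without overlap (log2 fold change 4.53 ± 0.17 SE, adjusted p = 2.66e-20). PNCK (4.93), AGXT (4.60) and STON2 (4.48) also rose among the 12 leading genes, from under 1 CPM at 2 h.

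Among the falls, RHOB, a small GTPase of the actin skeleton, belonged to the list of adhesion and migration genes. RHOB was at 6.14, 4.76, 5.32 and 4.99 CPM in the 2 h libraries and 0.307, 0.318, 0.247 and 0.105 CPM at 24 h. DMSO averaged 0.147 CPM, so only the 2 h libraries were high (log2 fold change -4.56 ± 0.22 SE, adjusted p = 3.45e-17). SPIB, an ETS factor of the PU.1 family, was at 334, 304, 309 and 307 CPM in the 2 h libraries and 40.1, 41.2, 40.2 and 38.9 CPM at 24 h. Its 24 h libraries lay well under 2 h and near the DMSO mean of 31.5 CPM (log2 fold change -2.97 ± 0.09 SE, adjusted p = 2.36e-22). FGR, a SRC family kinase, was at 15.5, 16.4, 15.9 and 16.0 CPM in the 2 h libraries and 1.87, 1.71, 2.25 and 1.94 CPM at 24 h, with 24 h near its DMSO mean of 2.28 CPM (log2 fold change -3.04 ± 0.14 SE, adjusted p = 7.04e-18). CRIP2 (-3.73), ADM2 (-2.83) and CTXN1 (-2.64) fell as well. PSMC1P1, a processed pseudogene of a proteasome subunit, had the largest fitted fall (log2 fold change -4.89 ± 1.50 SE, adjusted p = 0.00772), but its 24 h libraries were at 3.15, 0.105, 0.105 and 0.105 CPM, of which 3 are at the lowest value of the table.

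Histone genes and adhesion genes varied by member. Replication-dependent histone mRNAs normally lack a poly(A) tail, and the libraries were made from poly(A) RNA. Of 17 measured histone genes 7 rose and 1 fell, a share of 47.1% called against 10.6% of all genes. H2AC6 had a mean of 1.11 ± 0.336 CPM at 2 h and 19.5 ± 1.48 CPM at 24 h (SD, n = 4 each), without overlap (log2 fold change 4.19 ± 0.17 SE, adjusted p = 7.61e-19), and H2BC5 (3.30), H4C8 (2.15) and H2BC12 (2.11) rose too. H2AZ1 (-1.38), a variant that cells in cycle express, fell. Of 20 measured adhesion and migration genes 7 rose and 2 fell, a share of 45.0% called. SELPLG (1.38), the P-selectin ligand, and VIM (1.18) were among the risen, and RHOB (-4.56) was among the fallen.

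**Figure D4:**
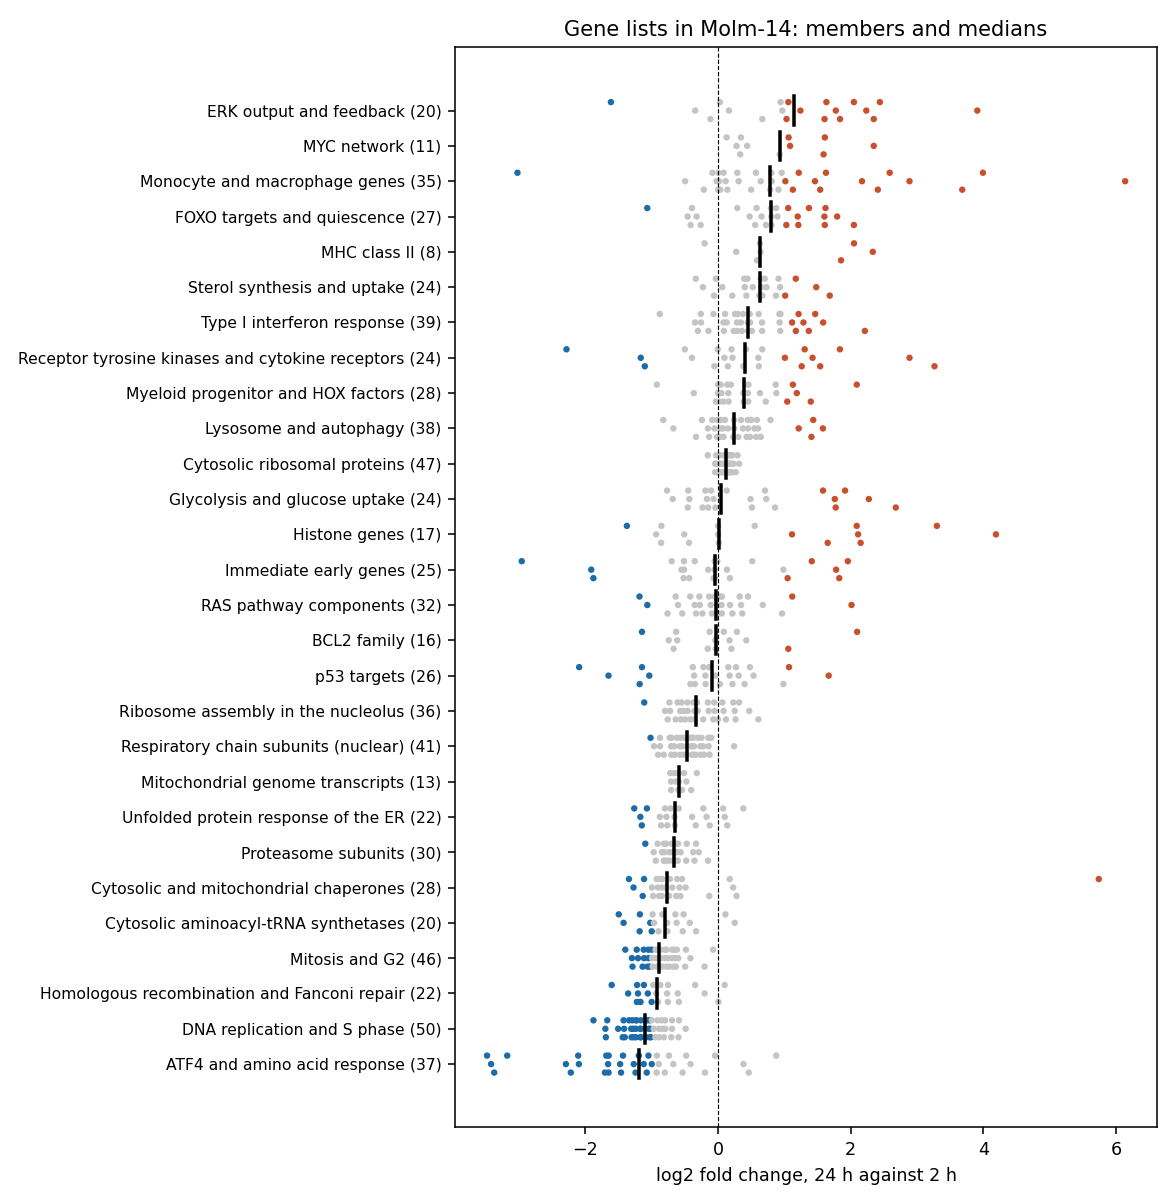
Log2 change from 2 h to 24 h in Molm-14 (horizontal) of each measured member of 28 gene lists, with the number measured in brackets, the list's median as a black bar and the median of all genes as a dashed line. Called genes are coloured, and the ERK output list has the highest median (1.15) and the amino acid response the lowest (-1.20).

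The change from 2 h to 24 h was then tested against the same change in OCIAML-3. It was higher in Molm-14 for 990 genes, 7.60% of all, and lower for 873, 6.70%, so that 14.3% of genes differed; the median difference over all genes was 0.06. Of the 20 ERK output genes 13 were higher in Molm-14 and none lower. DUSP6 changed by 3.91 in Molm-14 and -0.26 in OCIAML-3, a difference of 4.17 ± 0.29 SE with adjusted p = 3.80e-13. MYC changed by 2.35 and -0.36, a difference of 2.71 ± 0.062 SE with adjusted p = 2.11e-24. CCND1 rose in Molm-14 and fell in OCIAML-3 (-2.11), with a difference of 3.74 ± 0.19 SE with adjusted p = 2.21e-16. ETV4 fell in both, with changes of -1.62 and -5.08, and the difference of 3.47 was called.

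Proliferation genes were lower in both lines, and less so in Molm-14. For S phase genes the median change was -1.10 in Molm-14 and -2.41 in OCIAML-3, and the difference was called as higher in Molm-14 for 33 of 50. The medians for mitosis and G2 genes were -0.89 and -2.10, with 38 of 46 differing. Nucleolar assembly factors had medians of -0.34 and -1.22, with 20 of 36 differing, and sterol synthesis genes 0.63 and -0.46, with 14 of 24 differing. All of these differences were in the direction of Molm-14 being higher. NCL changed by -0.73 against -1.75 (1.02 ± 0.072 SE with adjusted p = 3.88e-13).

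**Figure D5:**
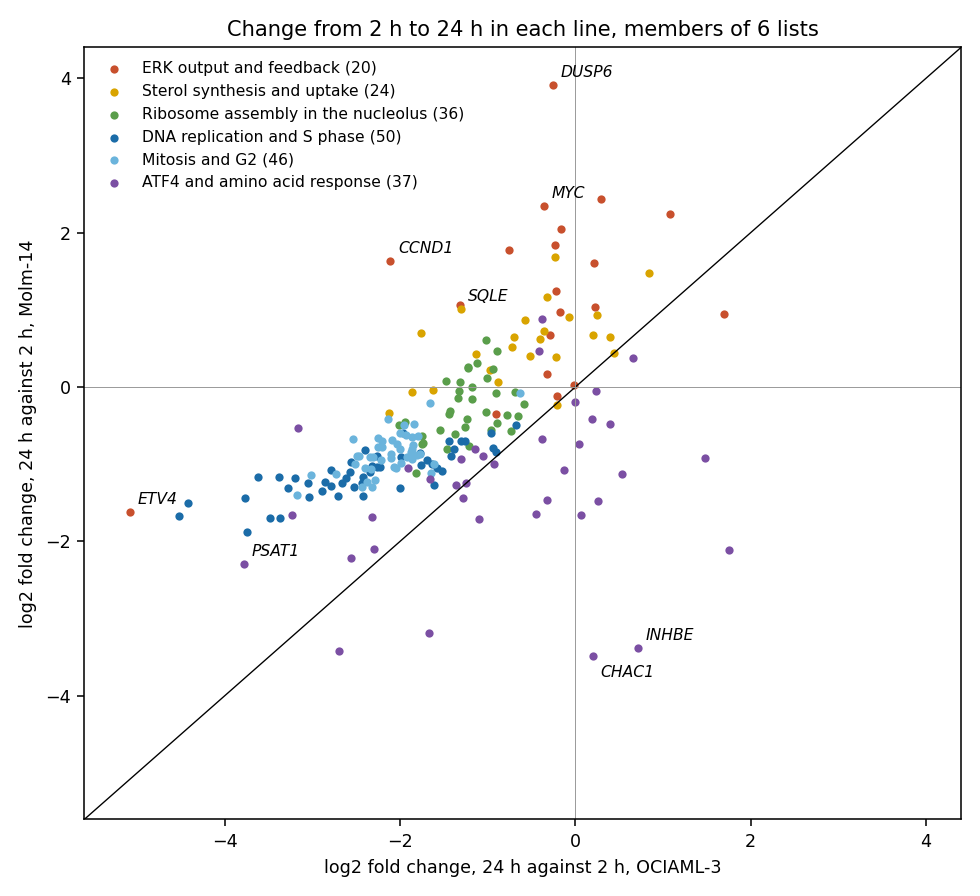
Log2 change from 2 h to 24 h in Molm-14 (vertical) against OCIAML-3 (horizontal) for the members of 6 lists, each point a gene, with the line of equal change. S phase and mitosis genes lie above the line at negative values in both lines, DUSP6 and MYC are high in Molm-14 and just under 0 in OCIAML-3, and CHAC1 and INHBE are low in Molm-14 and above 0 in OCIAML-3.

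The amino acid response differed the other way, lower in Molm-14 for 10 of 37 genes and higher for 4. CHAC1 changed by -3.48 in Molm-14 and 0.20 in OCIAML-3, a difference of -3.69 ± 0.34 SE with adjusted p = 1.21e-10. INHBE differed by -4.09, though its OCIAML-3 level was only 0.119 CPM at 2 h. PSAT1 fell in both lines and by less in Molm-14, at -2.30 and -3.78. Class II genes were lower in Molm-14 for 4 of 8, and HLA-DRA rose by 2.33 in Molm-14 and 6.39 in OCIAML-3. Whole-table leaders of the difference were NCF1C (4.55), a near-identical copy of the oxidase gene NCF1 like NCF1B (4.15), the transporter SLCO4A1 (4.47), SH3RF3 (4.23) and LGALS12 (4.05) on the higher side. KITLG (-4.36), the ligand of KIT, PRSS57 (-4.18) and MYO7B (-3.90) led the lower side. Their changes in Molm-14 were -0.44, -0.22 and -0.97, none of them called. UPK3BL2 (-4.56) was at the lowest value of the table in all Molm-14 libraries.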

How the data were processed

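Poly(A) RNA of the lines was sequenced, and the authors deposited log2 CPM (read counts scaled to library size, on a log2 scale) for 13033 gene symbols in 23 libraries. The submitters' processing notes name the genome hg38 (GRCh38) and the tools Trimmomatic 0.36, STAR 2.7.8a and RSEM 1.3.3, as well as limma 3.38.3, edgeR 3.24.3 and MultiQC 1.28. Annotation, strand setting, low-gene filter and the order of steps: not given in the sources used here. The third OCIAML-3 library of 24 h was not analysed here. All libraries shared a lowest value of -3.26, or 0.105 CPM, which marks the prior count. Library sizes were read from the spacing of low values, of which 75.1% to 82.7% lay within 0.05 of a whole read.

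The test was limma 3.58.1 (R 4.3.3), run on these log2 values: 1 fit of 6 group means over 23 libraries with trend and robust moderation, contrasts for 24 h against 2 h in each line and for their difference, and Benjamini-Hochberg adjustment over 13033 genes. The script was checked on simulated data. CPM printed are 2 to the power of the deposited value. Symbols were matched to RefSeq (GRCh38.p14) for positions, 12911 of 13033, and for promoters, 10440.

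Gene lists, members and tests were chosen with earlier results of these data known. Named genes were the 12 largest rises and falls among genes without overlap that reached 5 CPM at either time, up to 6 members a list, by smallest adjusted p, a set of RAS pathway and BCL2 family genes, and the 6 largest differences between lines in each direction; further list members and the neighbours of FCGR2B were chosen after their values were seen. Alternatives covered the log scale, a low-value filter, the scaling, the libraries in the fit, moderation, a replicate block, the fold limit, limma voom on recovered reads and leaving out each library. A few genes are not reported here.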

Additional observations from a re-analysis of the deposited data

Results flagged for a closer look

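In the groups of 4 libraries, 1 library lay far from the other 3 in 18 of 344 pairs of a named gene and a time. The values in parentheses are its gap to the nearest library over the whole range of log2 CPM, above Dixon's critical value for 4 samples. Chance flags about 1 in 20 groups. At 2 h, the fourth library was lowest for ISG20 (0.967) and MXD1 (0.933) and highest for ITGAM (0.899), the third was highest for ITGAX (0.931) and PGK1 (0.879), and the first was highest for SELPLG (0.877). At 24 h, the first library was lowest for MXI1 (0.912), GARS1 (0.895), ETV4 (0.880), YPEL5 (0.867) and BRCA1 (0.848). The second was highest for SH3RF3 (0.932) and lowest for H4C8 (0.906) and GPT2 (0.902), the third was lowest for DDIT3 (0.835), and the fourth was highest for NCL (0.868) and CLSPN (0.835). PSMC1P1 had the largest possible value, 1.000: its first 24 h library was at 3.15 CPM and the other 3 at the lowest value of the table. For ETV4 the outlying library was at 3.34 CPM and its nearest neighbour at 4.91 CPM.

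For 8 named genes the change from 2 h to 24 h was called in opposite directions in the lines and the difference itself was called with limma. In Molm-14 the rise against a fall in OCIAML-3 gave differences of 4.55 for NCF1C, 4.23 for SH3RF3, 4.15 for NCF1B, 4.05 for LGALS12, 3.74 for CCND1 and 3.70 for BCL2A1. SLC7A11, the cystine importer, fell by 2.11 on the log2 scale in Molm-14 and rose by 1.75 in OCIAML-3, a difference of -3.86, and TNFAIP2 differed by -2.22. Named genes with a called difference but no opposite calls, part of the 91 with a called difference, are not listed here.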

How the results depend on the processing

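Counts of called genes stayed within 1.5 times of the main ones under every alternative but 1: with no minimum fold change, 4359 genes were higher and 4542 lower at 24 h in Molm-14, and the difference between lines was higher for 4570 and lower for 3272. The replicate numbers were not taken as pairs because no label says that they mark a shared culture, day or batch. This does not show that the libraries were unpaired. Same-numbered libraries of the 2 times correlated at 0.12, 0.0042, 0.17 and 0.043 in their deviations from the group means. For 2 h replicates 1, 3 and 4 the same-numbered 24 h library was the best match. For 2 h replicate 2 it was 24 h replicate 4 (0.091). With replicate number as a replicate block the counts were 945 higher and 440 lower, and 986 and 870 for the difference between lines. Leaving out each Molm-14 library gave 940 to 965 higher and 438 to 452 lower; for the difference between lines, leaving out any library gave 969 to 1023 and 847 to 895. Scaling to library totals gave 1064 higher and 341 lower, and the log2(CPM + 1) scale 676 and 330.

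Of 173 genes named, 159 kept their call and sign in every alternative that was run for single genes. Dropping the fold limit was run for the counts only, and with the low-value filter 167 of the 173 genes were in the fit. On the log2(CPM + 1) scale the rise of LGALS12 was not called, at 0.60. The Molm-14 change of MYO7B, not called at -0.97, was called at -1.34 with limma voom and at -1.14 to -1.29 without 2 h replicate 2 or 4 or 24 h replicate 1. Signs turned only for genes without a call. BCL2 was at 0.0130 with median-of-ratios scaling and 0.0411 with library totals, FOS at 0.0362 and 0.0643, and TNF at 0.0179 and 0.0460; FOS was at 0.0106 with limma voom. Leaving out 1 library gave -0.0824 to 0.0174 for BCL2, -0.186 to 0.376 for CD14, -0.0132 to 0.0421 for CDKN1B, -0.160 to 0.136 for FOS and -0.125 to 0.0419 for TNF. The cause of these shifts was not tested. Genes under 1 CPM rest on few reads, and their changes are understated.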

Other observations

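Some further gene groups are read against the 10.6% of all genes called in Molm-14. Of 20 measured RNA polymerase I and III subunits, which transcribe ribosomal and transfer RNA, 1 fell and none rose, a share of 5.00%, and 1 rose under scaling to library totals. Of 9 measured sterol efflux and LXR target genes 1 rose (11.1%), and of 12 measured fatty acid synthesis genes 1 rose and 1 fell (16.7%), with none fallen on the log2(CPM + 1) scale. Of 13 measured granule and neutrophil genes 2 rose and 1, MPO, fell (23.1%).

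Other promoter elements were counted in the same windows. CCAAT, bound by the factor NF-Y, was found in 31 of 40 promoters of mitosis and G2 genes, against 36.8% of all promoters, 45.9% of those of fallen genes and 35.0% of those of risen genes. It was as common in other lists, whichever way they moved. It was in 15 of 18 promoters of sterol synthesis genes (median log2 change 0.63), 13 of 16 of histone genes (0.01) and 18 of 21 of endoplasmic reticulum stress genes (-0.65). The E-box CACGTG, bound by MYC with its partner, was found in 14 of 30 promoters of nucleolar assembly factors, against 10.2% of all, 8.96% for fallen and 10.5% for risen genes. TGACGTCA, the cyclic AMP response element, was in 5.78% of promoters of fallen and 1.43% of those of risen genes, against 3.20% of all. GTAAACA, an element of the forkhead family to which FOXO belongs, was in 4.16% of promoters of risen and 1.73% of those of fallen genes, against 2.35% of all. Of 24 promoters of the FOXO list 3 held it. These shares are descriptions, and none was tested.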
